A study of Mus musculus with 4 samples.

Results

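The Wnt ligands, their Frizzled receptors, the secreted inhibitors and R-spondins, and 7 further pathway genes (Axin2, Lrp5, Lrp6, Lef1, Tcf7, Wif1 and Znrf3) were taken by symbol from the gene tables of 4 mouse kidney libraries. They were 48 of 38924 listed genes: 19 Wnt, 10 Frizzled, 4 Sfrp, 4 Dkk and 4 R-spondin genes and the 7 others. All 4 libraries come from kidneys of female SCID mice of the CB-17 strain (Balb/c background), which have no working B or T lymphocytes, so both groups share that defect. Both groups received 3 tail vein injections within 7 days, of saline (2 libraries) or of immune complexes of IgG with Gd-IgA1, the galactose-deficient IgA1 of IgA nephropathy (2 libraries), and kidney was taken the day after the last one. The comparison asks what such complexes do to kidney RNA. Whether the 2 libraries of a group stem from separate animals is not stated in the labels. The p-values below therefore cover only the spread between these samples, which may be technical.

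Wnt proteins are lipid-modified secreted signals that act over short distances. A Wnt that binds a Frizzled receptor together with the co-receptor LRP5 or LRP6 keeps beta-catenin from being destroyed, and beta-catenin then switches on target genes with TCF/LEF factors, Axin2 being the most widely used read-out. In the developing kidney the duct-derived Wnt9b starts nephron formation, Wnt4 carries it on in the induced mesenchyme, and Wnt7b from the collecting duct is needed for the medulla.

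Reads assigned to genes ranged from 19675879 to 22791960 per library. Tubule RNA was present, with 6 proximal tubule markers summing to 6021 to 6777 CPM (reads of a gene scaled to library size and composition), while 6 T cell markers summed to at most 1.09 CPM. Libraries also differed in RNA of other cells. All 8 adipocyte markers had a higher mean with immune complexes, 7 of them without overlap. The exception was Pck1, which was abundant in every library (3792 to 4822 CPM) and hardly differed (log2 difference 0.09 ± 0.19). Saline 1 stood apart with Adipoq at 0.148 CPM against 24.9 to 87.8 CPM in the other libraries. All 5 red blood cell markers were higher without overlap, summing to 534.1 and 473.3 CPM with saline against 897.5 and 916.0 CPM with immune complexes. All 5 smooth muscle, all 6 macrophage and all 5 podocyte markers were higher in mean (4, 4 and 3 of them without overlap). Lower in mean were all 6 thick ascending limb markers (2 without overlap) and all 10 collecting duct principal cell markers (4 without overlap). So were all 7 urothelium markers (2 without overlap). Summed, the thick ascending limb markers came to 8037 and 7563 CPM with saline against 5338 and 8042 CPM with immune complexes, so only immune complex 1 was low. Over all tested genes, 14.6% were lower and 15.4% higher without overlap. The part of all these cell types in the members' values was not tested.

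No member passed edgeR's quasi-likelihood test at an adjusted p of 0.05, in which the background was 0 of 16334 tested genes (0%). Of the 48 members 34 had enough reads to be tested. The 5 with an unadjusted p under 0.05 were Wnt9b, Wnt10a, Wnt7b, Wnt4 and Axin2, all 5 lower with immune complexes and none higher, where 4.59% of all tested genes reached that level, 2.6% lower and 1.98% higher. Of the 34, 23 were lower and 11 higher (median log2 fold change -0.15, against 0.01 over all tested genes). For 12 members both immune complex libraries lay below both saline libraries, as for 14.6% of all genes, and for 2, Wnt2b and Lef1, both lay above, as for 15.4% of all genes. With exon reads alone 12 of 33 tested members (36.4%) did not overlap, against 29.5% of 14461 genes. Wnt2b and Lef1 were not among them. Members that passed the filter on low counts are not all members, so these counts describe the better expressed ones.

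Wnt9b showed the widest gap among the ligands. The gene lies on the minus strand of chromosome 11 (103727364 to 103749821, GRCm38), and 4.65% of its reads were intronic. Saline 1 had 32.9 CPM, saline 2 had 13.7 CPM, and immune complex 1 and 2 had 5.51 and 4.77 CPM. Both immune complex libraries were therefore below both saline libraries, while saline 1 was far above saline 2. The means were 23.3 ± 13.6 CPM and 5.14 ± 0.522 CPM (SD, n = 2 each), a log2 difference of -2.18 ± 0.42 (SE; edgeR adjusted p = 0.582).

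Wnt7b was the ligand with the highest level per length in saline kidneys. It is encoded on the minus strand of chromosome 15 (85535439 to 85581821), where AU022754 overlaps it on the other strand, and 3.61% of its reads were intronic. Its values were 57.5 and 23.0 CPM with saline against 12.1 and 17.7 CPM with immune complexes, a log2 difference of -1.43 ± 0.43 (edgeR adjusted p = 0.927). The groups did not overlap, but saline 2 was closer to immune complex 2 than to saline 1.

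Wnt4, on chromosome 4 (137277489 to 137299726), had 9.20 and 3.50 CPM with saline against 2.38 and 3.02 CPM with immune complexes. Here saline 1 alone was high, and the other 3 libraries lay close together. Its log2 difference was -1.23 ± 0.48 (edgeR adjusted p over 0.99). Wnt10a, a ligand best known from tooth and skin appendage development, lies on chromosome 1 (74791516 to 74804179). It had 73 and 39 reads with saline against 20 and 21 reads with immune complexes, which is 3.59, 1.84, 0.896 and 0.992 CPM. The log2 difference of Wnt10a was -1.52 ± 0.45 (edgeR adjusted p = 0.894).

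Axin2, a scaffold of the complex that destroys beta-catenin and itself a feedback target of the pathway, followed the same order of groups. It lies on chromosome 11 (108920349 to 108950783, plus strand) and had 109 and 76 reads with saline against 50 and 57 reads with immune complexes. In CPM these were 5.36, 3.60, 2.24 and 2.69, a log2 difference of -0.86 ± 0.34 (edgeR adjusted p over 0.99). Its groups did not overlap, and its saline libraries differed less than those of the 4 ligands.

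The 250 bases before the RefSeq start sites of Wnt9b and Axin2 are shown because these are the ligand with the widest gap and the pathway's usual read-out. Capitals mark GGGCGG, the GC box bound by Sp factors, or its reverse complement CCGCCC. Both are given 5′ to 3′ in the direction of the gene, from RefSeq on GRCm38.p6, chr11:103749822-103750071 (minus strand) and chr11:108920099-108920348 (plus strand).
Wnt9b: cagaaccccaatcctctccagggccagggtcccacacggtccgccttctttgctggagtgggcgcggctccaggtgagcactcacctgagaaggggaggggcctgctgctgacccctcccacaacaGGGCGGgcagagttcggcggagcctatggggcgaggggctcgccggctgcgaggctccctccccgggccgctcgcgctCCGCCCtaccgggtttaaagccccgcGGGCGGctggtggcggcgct
Axin2: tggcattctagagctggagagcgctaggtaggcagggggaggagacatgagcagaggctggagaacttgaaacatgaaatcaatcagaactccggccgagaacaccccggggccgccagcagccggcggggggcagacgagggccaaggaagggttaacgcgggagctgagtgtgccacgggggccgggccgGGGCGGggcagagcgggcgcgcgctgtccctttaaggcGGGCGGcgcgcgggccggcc
The Wnt9b window held 3 GC boxes and the Axin2 window 2, at 72.0% and 69.2% G and C against a median of 52.4% over 32851 windows. A GC box stood in 32.7% of all windows and in 28 of 38 windows of the 31 members that have one. The TCF/LEF core CTTTGA or TCAAAG, which does not overlap the GC box, stood in 13.8% of all windows and in 0 of these 2. Among members it stood in 5 of 38 windows, those of Dkk1, Fzd1, Lef1, Wnt11 and Wnt5b. A match is a description of letters, and its absence says only that they are not in this window.

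The values of these 5 genes rest in part on saline 1. Without that library the log2 difference was -1.41 for Wnt9b, -0.96 for Wnt10a, -0.63 for Wnt7b, -0.38 for Wnt4 and -0.54 for Axin2, none of them called (0.147% of genes were called lower). Without saline 2 they were -2.69, -1.93, -1.96, -1.78 and -1.13, and Wnt9b (adjusted p = 6.53e-09), Wnt7b (5.01e-05) and Wnt4 (0.0139) passed in edgeR, as did 0.92% of genes in that direction; the lone saline library is there assumed to vary like the other group. DESeq2 on all 4 libraries called Wnt9b (adjusted p = 5.93e-05) and Wnt7b (0.0413), where 0.337% of its genes were called lower. edgeR with the replicate number as a block called Wnt9b (0.171% of genes lower), and with the numbers crossed, an alternative added after seeing the data, it called 2 members (0.539% of genes lower). In the authors' deposited table the same pair passed. The log2 fold change of saline over immune complex was 1.14 (adjusted p = 8.98e-05) for Wnt9b and 0.78 (adjusted p = 0.046) for Wnt7b. The counts in that table equalled those used here, so it is no separate support. Its fold changes were smaller in size than those of edgeR (immune complex over saline, -2.18 for Wnt9b and -1.43 for Wnt7b). The sizes are therefore not set against each other. That table called 0.336% of its genes as lower with immune complexes and did not call Wnt4 (adjusted p = 0.752), Wnt10a (0.805) or Axin2 (log2 0.39, adjusted p over 0.99).

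**Figure D1:**
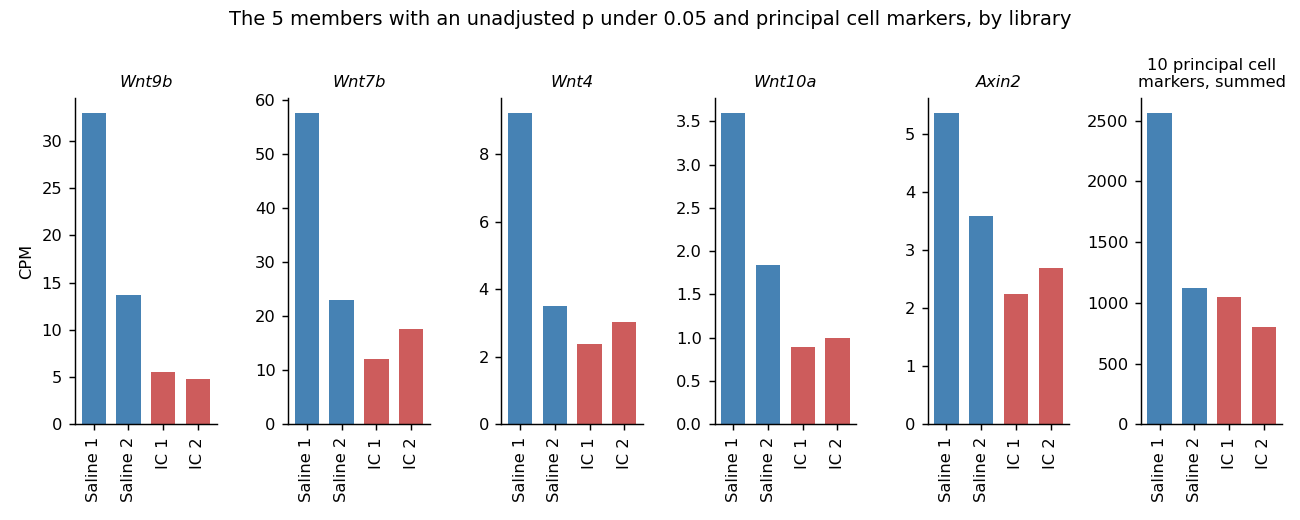
CPM (linear axis from 0, a separate scale in each panel) of the 5 members with an unadjusted p under 0.05 and of 10 principal cell markers summed, 1 bar per library; IC is immune complex. In every panel saline 1 is highest, and Wnt9b stands at 32.9 and 13.7 CPM with saline against 5.51 and 4.77 CPM in immune complex libraries.

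Of the markers of collecting duct principal cells, all 10 had a lower mean with immune complexes, 4 of them without overlap (Aqp2, Fxyd4, Elf5 and Gata3). Over all tested genes, 14.6% were lower without overlap. None of the 10 markers was at 0. Their sum, highest in saline 1, was 2558 and 1123 CPM with saline against 1052 and 804.3 CPM with immune complexes. Aqp2, the vasopressin-regulated water channel, made up most of the difference, at 1704, 544.3, 528.0 and 301.9 CPM. In contrast, the sodium channel subunit genes Scnn1b and Scnn1g had log2 differences of -0.06 and -0.02. The 7 urothelium markers summed to 75.5 and 92.3 CPM with saline against 16.4 and 18.3 CPM with immune complexes, but only Psca (46.3, 26.8, 3.76 and 4.30 CPM) and Upk3b (23.8, 13.6, 1.43 and 3.54 CPM) separated the groups. The other 5, Upk1a, Upk1b, Upk2, Upk3a and Krt5, were high in saline 2 alone and lower in saline 1 than in either immune complex library, as with Krt5 at 0.394, 7.52, 2.06 and 1.42 CPM. In bulk kidney, fewer cells of a type and less RNA per cell cannot be told apart, and the part of collecting duct and urothelial cells in the Wnt values was not tested.

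Aqp2 was the largest part of the sum in each library, and single markers differed in how far they followed it. Between saline 2 and immune complex 1, whose sums were close, Aqp2 stood at 544.3 against 528.0 CPM. Lower in immune complex 1 were also Elf5 (9.27 against 3.18 CPM), Aqp4 (99.2 against 28.8 CPM), Fxyd4 (37.9 against 24.2 CPM) and Gata3 (23.1 against 17.9 CPM). Higher there were Hsd11b2 (220.1 against 238.7 CPM), Aqp3 (97.1 against 101.8 CPM), Scnn1b (47.5 against 57.6 CPM), Scnn1g (42.8 against 48.5 CPM) and Avpr2 (1.70 against 3.23 CPM). Between the same libraries Wnt9b stood at 13.7 against 5.51 CPM and Wnt7b at 23.0 against 12.1 CPM. Per 1000 CPM of the summed markers, a ratio formed after the values were seen, Wnt9b came to 12.9 and 12.2 with saline against 5.24 and 5.93 with immune complexes. The groups of that ratio did not overlap, and the saline libraries came close to each other. For Wnt7b the ratio was 22.5 and 20.5 with saline against 11.5 and 22.0 with immune complexes, so the groups overlapped. Wnt4 (3.60, 3.12, 2.26 and 3.76) and Axin2 (2.10, 3.20, 2.13 and 3.35) overlapped as well, and Wnt10a (1.40, 1.64, 0.852 and 1.23) did not. The ratio depends on the marker chosen. Per 100 CPM of Hsd11b2, the enzyme that shields principal cells from glucocorticoids, Wnt9b came to 12.4, 6.21, 2.31 and 2.84 in the same order. Axin2 then no longer overlapped (2.02, 1.63, 0.939 and 1.60). Per 1000 CPM of Aqp2, Wnt9b again did not overlap (19.3, 25.1, 10.4 and 15.8), whereas Wnt10a did (2.11, 3.39, 1.70 and 3.29). Ratios to the other markers were not formed, so whether Wnt9b stays apart with each of them is not known. Elf5, at 23.6, 9.27, 3.18 and 4.96 CPM, had a log2 difference (-2.01 ± 0.48) near that of Wnt9b (-2.18 ± 0.42). Those of Scnn1b and Scnn1g were -0.06 and -0.02. With 2 libraries a group the ratios were not tested.

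**Figure D2:**
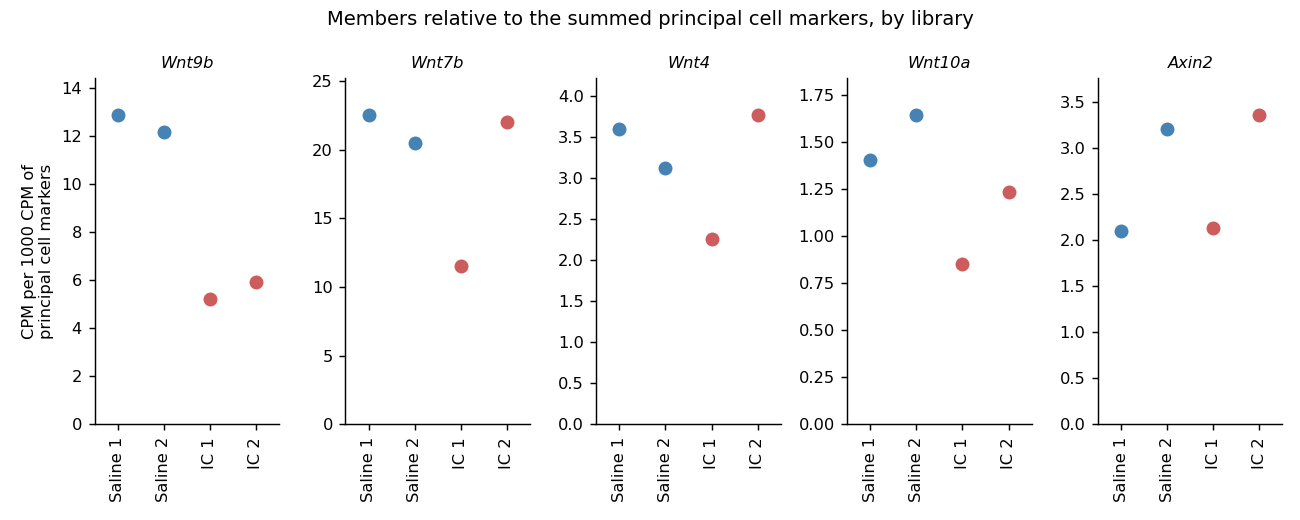
CPM of each gene per 1000 CPM of the 10 summed principal cell markers (linear axis from 0, separate scales), 1 point per library. The 2 saline points of Wnt9b lie at 12.9 and 12.2, above both immune complex points, whereas the groups overlap for Wnt7b, Wnt4 and Axin2.

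The other ligands had no unadjusted p under 0.05. Summed per length over the 19 ligands, the authors' RPKM (exon reads scaled to exon length and library total) was 35.7 and 19.4 with saline against 12.1 and 14.4 with immune complexes. The 4 ligands described above made up 24.2, 9.47, 4.56 and 5.70 of this, and the other 15 made up 11.5, 9.97, 7.49 and 8.67. Wnt5a, a ligand that mostly signals without beta-catenin, had 29.9 and 24.7 CPM with saline against 13.2 and 24.2 CPM with immune complexes. Only immune complex 1 was low, and without it the log2 difference of -0.54 ± 0.30 shrank to -0.17. Wnt5b had 52.8, 50.7, 44.8 and 40.7 CPM (log2 difference -0.27 ± 0.17), but 77.8% of its reads were intronic and Fbxl14 lies within its span on the other strand. The strand setting of the counting is unstated, so reads of the 2 genes cannot be told apart outside the Wnt5b exons. In exon-based RPKM Wnt5b stood at 4.77 and 4.44 with saline against 3.59 and 3.09 with immune complexes, without overlap.

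Wnt9a, at 3.30 and 3.22 CPM with saline against 2.64 and 2.88 CPM with immune complexes, was lower by less than its error (-0.24 ± 0.30). Wnt11, known from the tips of the branching ureteric bud, ranged from 2.79 to 3.40 CPM in the 4 libraries, with overlapping groups (0.04 ± 0.31). Wnt2b had 1.62 and 1.75 CPM with saline against 2.06 and 2.22 CPM with immune complexes (0.34 ± 0.34), and 52.1% of its reads were intronic. In exon-based RPKM its groups overlapped (0.270, 0.174, 0.184 and 0.400). Wnt2 and Wnt16 stayed below 1 CPM in every library and overlapped between groups.

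The remaining 8 ligands, Wnt1, Wnt3, Wnt3a, Wnt6, Wnt7a, Wnt8a, Wnt8b and Wnt10b, had too few reads to be tested, at most 8 in any library. Wnt1 had no read, which allows up to 3 reads per library or 0.132 to 0.152 CPM before composition scaling. Of the low ones, Wnt3 and Wnt8a had intron reads only. Of 4 pairs of neighbouring ligand genes, 3 differed widely in reads. Wnt9b had 1182 reads in all and Wnt3, 24328 bases away with no listed gene between, had 2. Wnt10a had 153 and Wnt6, 6196 bases away, had 19, and Wnt9a had 255 and Wnt3a, 16175 bases away, had 6. In the fourth pair, Wnt10b and Wnt1, both were scarce (11 and 0 reads).

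**Figure D3:**
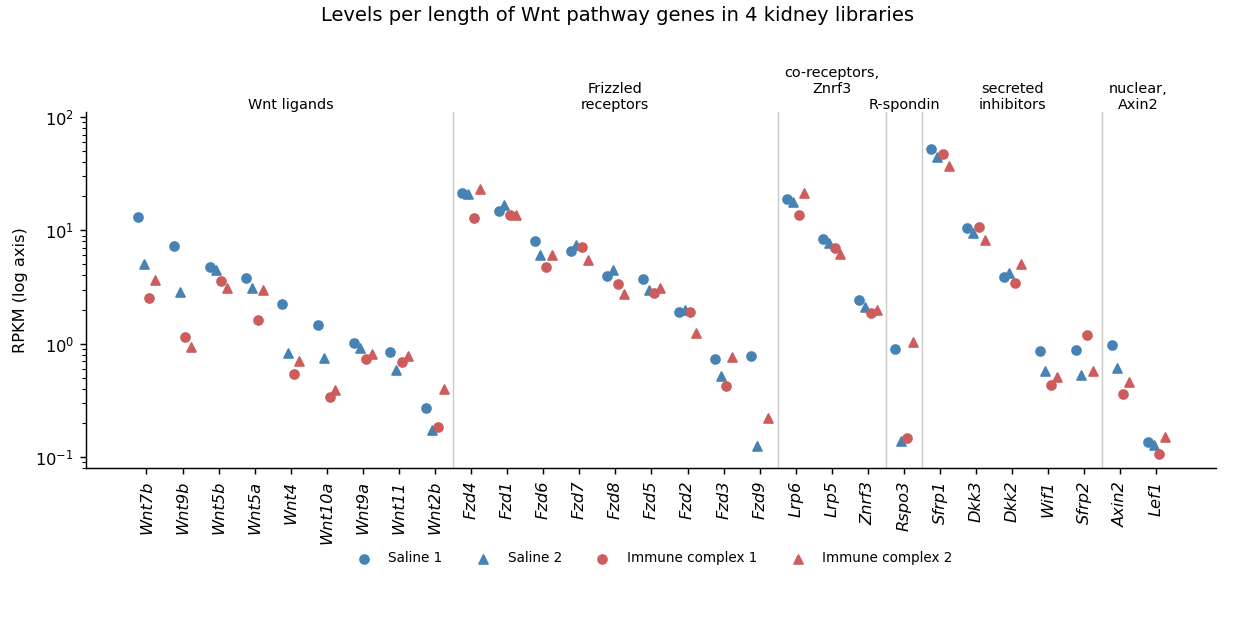
Authors' RPKM (log axis) of the 29 members at a mean of at least 1 CPM or among the 12 lowest p-values, grouped by role, 1 point per library (circles replicate 1, triangles replicate 2). Sfrp1 is highest at 36.8 to 52.7, and Wnt7b, Wnt9b, Wnt4 and Wnt10a show saline points above immune complex points. The same holds for other members, such as Wnt5b, Fzd8, Lrp5 and Axin2.

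Frizzled receptors had a higher summed level per length than the ligands in every library. Their summed RPKM was 61.8 and 61.4 with saline against 46.7 and 56.4 with immune complexes. Of 9 tested, 8 were lower and 1 higher (48.1% of all tested genes were lower). Their median log2 fold change was -0.17, and none had an unadjusted p under 0.05. Fzd4, which also serves Norrin signalling in blood vessels, led in saline at 21.0 ± 0.404 RPKM (SD, n = 2), followed by Fzd1 at 15.8 ± 1.52. Fzd4 had 76.3 and 76.2 CPM with saline against 48.2 and 87.2 CPM with immune complexes. The immune complex libraries thus lay on either side of the saline ones, and the difference turned from -0.17 to 0.19 without immune complex 1. Fzd1 had 62.3 and 73.1 CPM with saline against 60.8 and 61.2 CPM with immune complexes (-0.15 ± 0.17).

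Fzd8 had the clearest separation of the family, at 12.9 and 14.8 CPM with saline against 11.4 and 9.36 CPM with immune complexes. The groups did not overlap, but saline 1 was closer to immune complex 1 than to saline 2. The log2 difference of Fzd8 was -0.41 ± 0.22 (edgeR adjusted p over 0.99). Fzd6 ranged from 21.8 to 33.9 CPM, Fzd7 from 26.8 to 35.2 CPM, Fzd5 from 19.9 to 25.1 CPM and Fzd2 from 4.63 to 7.19 CPM, all with overlapping groups. Fzd3 stood at 3.25 and 2.65 CPM with saline against 2.11 and 4.54 CPM with immune complexes and was the member of the family with a positive log2 difference (0.17 ± 0.43). Fzd9 was a matter of 1 library, with 35 reads in saline 1 and 6, 3 and 11 in saline 2, immune complex 1 and immune complex 2. Its log2 difference of -1.61 ± 0.95 became 0.19 without saline 1. Fzd10, with 2 to 9 reads per library, was not tested.

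The co-receptors had small differences. Lrp6 was the most abundant of them at 184.2 and 178.4 CPM with saline against 142.4 and 220.0 CPM with immune complexes. Its saline values were close together and lay between the immune complex values (log2 difference -0.0009 ± 0.24). Lrp5, at 81.1, 76.6, 72.4 and 63.7 CPM, did not overlap between groups (-0.21 ± 0.17). Znrf3, a ubiquitin ligase that removes Frizzled from the cell surface, had 407 and 381 reads with saline against 387 and 394 reads with immune complexes (-0.08 ± 0.19).

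R-spondins, which hold Znrf3 and Rnf43 off the receptors, were scarce. Rspo3 had 43 and 8 reads with saline against 8 and 58 reads with immune complexes, so that 1 library of each group was high. Its log2 difference was 0.31 ± 1.01 and ran from -1.78 without immune complex 2 to 2.01 without saline 1. Rspo1, with 1 and 4 reads with saline against 9 and 13 with immune complexes, was too low to be tested. Rspo2 and Rspo4 were read almost wholly in introns (98.7% and 100% of their reads), and their RPKM, which uses exon reads, was at most 0.0132.

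Of the secreted inhibitors, Sfrp1, which binds Wnt proteins outside the cell, had the highest RPKM of all members. It stood at 52.7 and 44.0 RPKM with saline against 46.7 and 36.8 RPKM with immune complexes, and in CPM at 223.3, 191.7, 209.5 and 165.3. The groups overlapped (log2 difference -0.15 ± 0.20). Dkk3, a divergent member of the Dickkopf family, had 34.5 and 32.3 CPM with saline against 37.9 and 28.7 CPM with immune complexes (-0.01 ± 0.20). Dkk2, which blocks LRP5 and LRP6, had 14.3 and 16.2 CPM with saline against 13.5 and 19.6 CPM with immune complexes (0.12 ± 0.24). For both, the saline values lay between the immune complex values.

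The scarce inhibitors had at most 58 reads in any library. Wif1, which binds Wnt proteins directly, had 45 and 35 reads with saline against 25 and 31 reads with immune complexes and did not overlap (-0.58 ± 0.38). Sfrp2 had 39, 26, 58 and 27 reads (0.30 ± 0.47). Sfrp4 had 3 reads in saline 1, 45 in saline 2, and 18 and 17 with immune complexes. Without saline 1 its log2 difference was -1.40 and without saline 2 it was 2.39. Sfrp5, known as an adipocyte-secreted inhibitor, had 6 and 20 reads with saline against 22 and 6 reads with immune complexes, unlike the adipocyte marker Adipoq, at 87.8 and 78.6 CPM in the latter. Dkk1 had 1 read in each of 2 libraries and Dkk4 had none.

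Of the nuclear factors, Lef1 had 26 and 26 reads with saline against 32 and 33 reads with immune complexes, a log2 difference of 0.25 ± 0.36. With exon reads the difference of Lef1 was 0.050 and its groups overlapped. Tcf7 had 8 and 9 reads with saline against 4 and 4 with immune complexes, under the filter, and 44.0% of them were intronic. Both genes are widely known from T cells, whose 6 markers summed in the 4 libraries to 0.639, 0.757, 0.672 and 1.09 CPM.

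**Figure D4:**
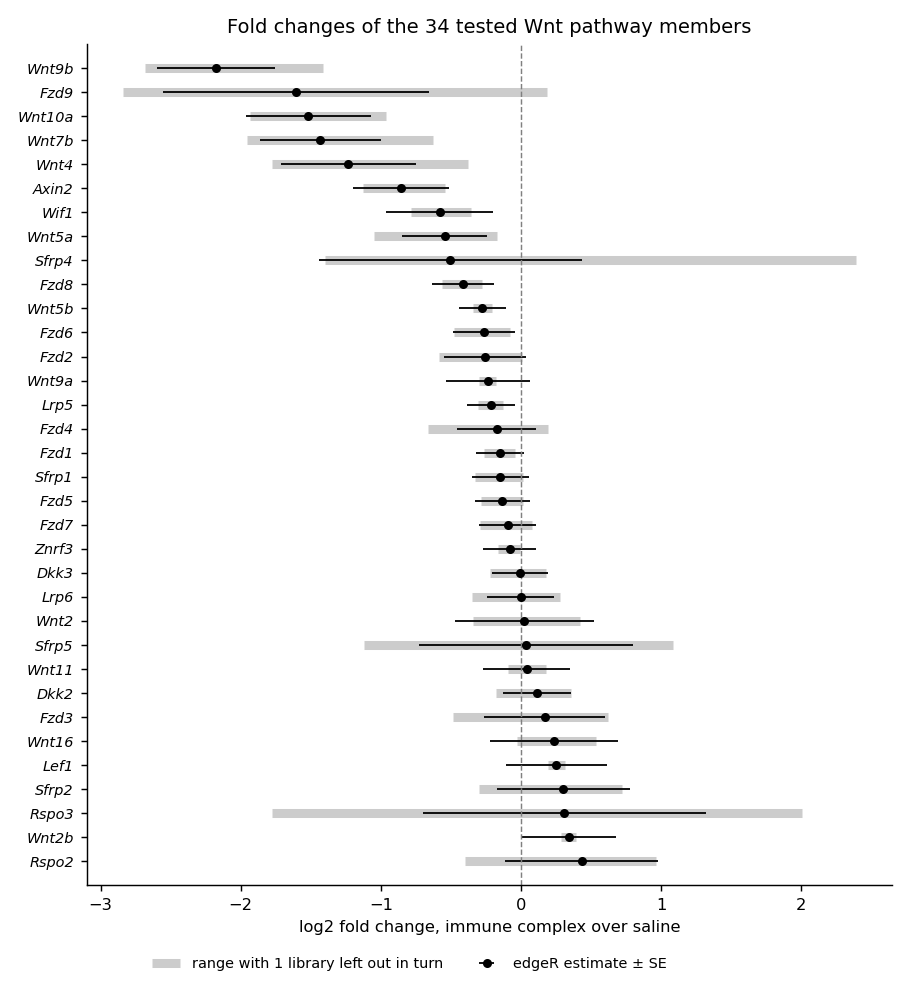
Log2 fold change of immune complex over saline for the 34 tested members (points, edgeR estimate with SE) and the range when 1 library is left out in turn (grey). Wnt9b, Wnt10a, Wnt7b, Wnt4 and Axin2 lie below 0 over the whole grey range, whereas Fzd9, Sfrp4 and Rspo3 cross 0.

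Of the other genes of the pathway, 83 were listed from 7 sublists and 75 were tested. None passed over all genes, 49 were lower and 26 higher (48.1% of all tested genes were lower), and the median log2 fold change was -0.06. At an unadjusted p under 0.05 there were 3 of 75, all lower, where 4.59% of all tested genes (2.6% lower) reached that level. They were the feedback inhibitor Nkd1 (7.18 and 5.39 CPM with saline, 4.03 and 3.12 CPM with immune complexes; -0.81 ± 0.30), the receptor-like kinase Ptk7 (6.79, 5.58, 3.99 and 3.31 CPM; -0.76 ± 0.28) and the R-spondin receptor Lgr6. Lgr6 had 2.66 CPM in saline 1 and 0.378 to 0.520 CPM in the other 3 libraries, so 1 library was high.

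The 14 tested common target genes did not share a direction, with 8 lower and 6 higher (median -0.03). Besides Nkd1, Tnfrsf19 was lower (4.03, 1.47, 0.358 and 1.46 CPM, so that saline 2 and immune complex 2 were nearly equal; -1.59 ± 0.73) and Twist1 higher (0.935, 0.662, 1.39 and 1.56 CPM; 0.88 ± 0.40). Ccnd1, which encodes cyclin D1, ranged from 260.9 to 312.1 CPM (0.03 ± 0.18), and Myc from 6.39 to 9.60 CPM (-0.07 ± 0.29). Of 10 tested co-receptor and other receptor genes 7 were lower, among them Rnf43, the partner of Znrf3 (17.2, 11.4, 8.83 and 10.8 CPM; -0.54 ± 0.27). Of 11 nuclear factors 8 were lower and 3 higher, with the repressor Tcf7l1 at 18.1, 13.4, 11.9 and 9.03 CPM (-0.59 ± 0.25) and the beta-catenin cofactor genes Bcl9l (-0.36 ± 0.19) and Pygo2 (-0.26 ± 0.17) also without overlap.

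No gene of the secretion sublist, which is not limited to genes for making and releasing the ligand, had an unadjusted p under 0.05. Among its 4 genes the lowest p-values were those of Trabd2b (0.21 ± 0.21), Porcn (-0.21 ± 0.27) and Wls (0.09 ± 0.23). Porcn attaches the lipid, and Wls carries Wnt proteins to the cell surface. Of 21 cytoplasmic signalling genes 18 were lower and 3 higher (48.1% of all tested genes were lower). Their differences were small, with a median of -0.07. Only 1 gene, Nkd1, did not overlap between groups, where 30% of all tested genes did not. Ctnnb1, the gene of beta-catenin, ranged from 417.0 to 511.4 CPM (-0.12 ± 0.18), Dact2 differed by -0.24 ± 0.21 and Ctnnbip1 by 0.17 ± 0.21. The 8 tested further inhibitors and modulators were led by Adgra2 (listed as Gpr124), Apcdd1 and Igfbp4 at -0.28, -0.28 and 0.22. All 8 overlapped between groups, where 30% of all tested genes did not. Planar polarity genes were 4 lower and 6 higher, with Celsr2 at -0.37 ± 0.20, Prickle1 at 0.27 ± 0.21 and Vangl2 at -0.35 ± 0.31.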

How the data were processed

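The members and gene lists were chosen with earlier results of these data known. Kidney RNA was sequenced by Illumina protocols, per the labels. STAR 2.5.2b, DESeq2 and GRCm38 appear, without a role, among the submitters' processing notes. The counter, annotation release and strand option were not given in the sources used here. Each library has a deposited table of raw read counts per gene (exon plus intron reads, which equalled the total for every gene) and RPKM values the authors computed; for all 48 members RPKM was recovered from exon reads, exon length and library total within a relative difference of 0.0001. The authors' deposited comparison, of 16128 genes with at least 41 reads in all, gives log2 fold changes, p-values and a score per gene (mean normalized count, test statistic); it is coded saline over immune complex, since 80 of its 80 called genes have that sign in the reads. Genes are named with their symbols in the files, and other genes were matched by gene ID.

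Total gene reads of all 4 libraries entered edgeR's quasi-likelihood test (edgeR 4.0.16, R 4.3.3; low counts removed by filterByExpr, scaling by TMM, group term only, Benjamini-Hochberg over 16334 genes at 0.05), a method tested on simulated data. The fit had 2 residual degrees of freedom and a biological coefficient of variation of 0.212. SE is the fold change over the square root of F. Values are given for each member at a mean of at least 1 CPM or among the 12 lowest p-values, and for the 3 lowest p-values of each pathway sublist; other genes were named after their values were seen. Chi-square per degree of freedom between the 2 libraries of a group was 18.2 (saline) and 61.2 (immune complex), above the sampling noise of copies of 1 library. Alternatives were exon reads, unique reads, relative log expression scaling, no filter, DESeq2 1.42.0, limma-voom (limma 3.58.1), a replicate block and leaving out each library. Limits from a count of 0 cover counting error only.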

Additional observations from a re-analysis of the deposited data

How the results depend on the processing

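Over all genes edgeR called 0 genes with total reads, 1 with unique reads and 2 without the low-count filter, and 749 had an unadjusted p under 0.05. DESeq2 called 91 genes, 2 of them members (Wnt9b and Wnt7b), and limma-voom called 0. With the replicate number as a replicate block 55 genes were called, 1 of them a member (Wnt9b, -2.06, adjusted p = 0.0106). The labels do not say that the numbers pair samples. The deviations of same-numbered libraries were only weakly related, with a negative sign (correlation across genes -0.135). A crossed pairing, added after seeing the data, called 160 genes and 2 members. When each library was left out in turn the calls ranged from 0 to 279 over all genes and from 0 to 3 among members, the median of tested members from -0.25 to -0.17, and the members without overlap, 14 with all libraries, from 22 to 28, as fewer libraries overlap less. Over all genes 30.0% did not overlap with all libraries and 48.6% to 79.6% with 1 left out.

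With a library left out, the direction turned for 18 of the 34 tested members. Of these, 13 are among the 49 members and pathway genes taken by the naming rule, with 6 pathway genes. The lowest and highest log2 differences of these 19 lowest and highest log2 differences were -0.18 and 0.36 for Dkk2, -0.22 and 0.18 for Dkk3, -0.58 and 0.0097 for Fzd2, -0.48 and 0.62 for Fzd3, -0.66 and 0.19 for Fzd4, -0.28 and 0.017 for Fzd5, -0.29 and 0.080 for Fzd7, -2.84 and 0.19 for Fzd9, -0.35 and 0.28 for Lrp6, -1.78 and 2.01 for Rspo3, -0.33 and 0.013 for Sfrp1, -0.30 and 0.72 for Sfrp2, -0.094 and 0.18 for Wnt11, -0.034 and 0.42 for Trabd2b, -0.55 and 0.057 for Porcn, -0.24 and 0.35 for Wls, -0.66 and 0.024 for Gpr124, -0.15 and 0.52 for Igfbp4 and -0.057 and 0.37 for Ctnnbip1. With exon reads Dkk3 was at 0.019 and Lrp6 at 0.0043. The cause was not tested. The 5 members outside the rule were Sfrp4 (-1.40 to 2.39), Sfrp5 (-1.12 to 1.09), Wnt2 (-0.34 to 0.42), Wnt16 (-0.029 to 0.53) and Rspo2 (-0.40 to 0.97). Of the 49, the other 30 kept their direction in every alternative run. Depth limits members with few reads, such as Fzd9 and Rspo1.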
